A study of Homo sapiens with 2 samples.

Results

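The casein kinase 1 (CK1) and casein kinase 2 (CK2) genes comprise 9 of the 19719 protein-coding genes whose promoters were examined. They were chosen by name as the CK1 and CK2 genes CSNK1A1, CSNK1D, CSNK1E, CSNK1G1, CSNK1G2, CSNK1G3, CSNK2A1, CSNK2A2 and CSNK2B, of which 6 encode CK1 enzymes and 3 encode CK2 subunits. The cells were MDA-MB-231, a human line derived from triple-negative breast cancer, without treatment, and their chromatin was profiled with an antibody against PRMT6, an arginine methyltransferase, or against PARP1, an ADP-ribosyltransferase. There is 1 library per antibody and 1 peak list per library, a peak being an interval where fragments piled up above background. The lists hold 9080 PRMT6 and 11651 PARP1 peaks. They carry neither read depth nor expression, so the identity of the line was not checked, and a control antibody was not part of the data used here.

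CK1 enzymes are serine and threonine kinases that act without a second messenger. CK1 delta and CK1 epsilon phosphorylate the PER proteins and thereby set the period of the circadian clock. CK1 alpha primes beta-catenin for destruction in the Wnt pathway, and the gamma isoforms are anchored at the plasma membrane, where they phosphorylate the Wnt co-receptor LRP6. CK2 is a separate kinase, a constitutively active complex of catalytic alpha or alpha prime subunits around a dimer of regulatory beta subunits.

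The question was which of these genes carry PRMT6 and PARP1 peaks at the 5′ end, and whether the peaks of both lists fall in the same place. A promoter is taken as the window reaching 3 kb up- and downstream from the 5′ end of a gene record in GRCh38, the build that the peak positions show. Promoter peaks in both lists were found at 3 of the 9 genes, CSNK1A1, CSNK1G3 and CSNK2B, against a share of 13.4% among all protein-coding genes. CSNK1G2 had a PRMT6 promoter peak without a PARP1 peak, a pattern seen in 4.88% of all genes. In total, PRMT6 marked 4 of the 9 promoters, against 18.3% of all genes, and PARP1 marked 3, against 22.5%. The other 5 promoters, those of CSNK1D, CSNK1E, CSNK1G1 and both catalytic CK2 subunits, had no peak in either list. With 1 library per antibody and 9 genes of a named family, these counts describe the libraries, and no test between groups was possible.

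**Figure D1:**
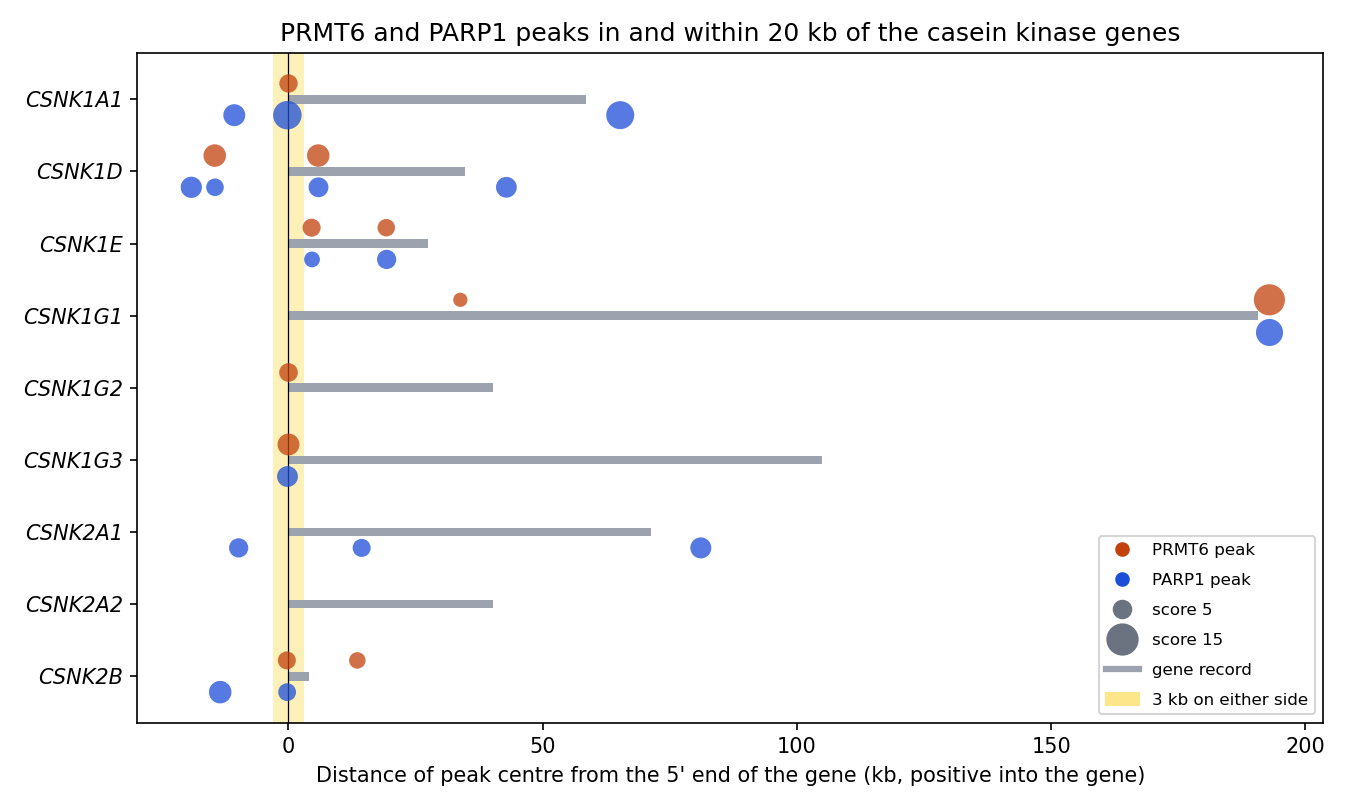
Peaks in and within 20 kb of each gene, plotted by the distance of the peak centre from the 5′ end in kb, with PRMT6 peaks above and PARP1 peaks below the grey gene record and the area of a point proportional to the score. CSNK1A1, CSNK1G3 and CSNK2B have a point of each colour in the shaded promoter window, CSNK1G2 has a PRMT6 point only, and CSNK2A2 has no point.

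The sequences under the promoter peaks are shown because both peaks of each of the 3 shared promoters cover part of the 250 bases upstream of the start. Each line gives the 250 bases before the RefSeq start in GRCh38.p14, read 5′ to 3′ along the gene. Capitals mark bases under peaks of both lists. CSNK1A1 lies on the minus strand (chr5:149551440-149551689), CSNK1G3 on the plus strand (chr5:123511927-123512176) and CSNK2B on the plus strand (chr6:31665830-31666079). CSNK2A2, on the minus strand (chr16:58198107-58198356), is added as a promoter without a peak.
CSNK1A1: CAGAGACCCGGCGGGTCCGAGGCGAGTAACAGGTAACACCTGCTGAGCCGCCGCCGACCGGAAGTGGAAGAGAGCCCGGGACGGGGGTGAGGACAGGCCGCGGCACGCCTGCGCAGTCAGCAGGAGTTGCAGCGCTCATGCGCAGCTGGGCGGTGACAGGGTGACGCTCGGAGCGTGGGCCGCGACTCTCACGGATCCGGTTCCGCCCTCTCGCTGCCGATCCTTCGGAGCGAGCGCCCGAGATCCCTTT
CSNK1G3: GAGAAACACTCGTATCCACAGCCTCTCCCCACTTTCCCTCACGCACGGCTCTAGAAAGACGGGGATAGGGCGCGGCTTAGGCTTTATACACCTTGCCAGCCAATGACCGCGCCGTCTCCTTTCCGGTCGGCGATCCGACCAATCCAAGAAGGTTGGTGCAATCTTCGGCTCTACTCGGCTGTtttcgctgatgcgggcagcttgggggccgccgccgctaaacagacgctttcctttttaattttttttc
CSNK2B: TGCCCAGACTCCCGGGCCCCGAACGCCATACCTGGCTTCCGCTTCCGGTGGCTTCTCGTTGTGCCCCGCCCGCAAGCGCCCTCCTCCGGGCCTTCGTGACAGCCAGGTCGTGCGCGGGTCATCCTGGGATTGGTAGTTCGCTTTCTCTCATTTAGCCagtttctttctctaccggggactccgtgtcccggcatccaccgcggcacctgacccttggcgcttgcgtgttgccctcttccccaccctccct
CSNK2A2: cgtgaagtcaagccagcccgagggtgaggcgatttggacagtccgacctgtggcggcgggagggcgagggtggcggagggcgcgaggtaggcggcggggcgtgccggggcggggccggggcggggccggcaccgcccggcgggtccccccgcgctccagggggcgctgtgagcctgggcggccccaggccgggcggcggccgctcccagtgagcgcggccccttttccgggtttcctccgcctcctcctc

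All 250 bases lay under both peaks at CSNK1A1, 182 did at CSNK1G3 and 157 did at CSNK2B. At CSNK1G3 and CSNK2B the PRMT6 peak covered all 250 bases, and the lower-case part next to the start lay under the PRMT6 peak alone. RefSeq promoter windows, which run from 250 bases before to 50 bases after a start, existed for 7 of the 9 genes. CSNK1D and CSNK1G2 had none in the table used.

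The shared promoters had high ratios of observed to expected CpG dinucleotides, a measure scaled to the C and G content of the window. The observed over expected CpG number of the window was 0.97 at CSNK1A1, 1.1 at CSNK1G3 and 0.908 at CSNK2B. The window of CSNK1G3 exceeded 97% of 22175 promoter windows of protein-coding genes in this measure. At the start of the gene record, the members without a promoter peak had 0.849 (CSNK2A2), 0.727 (CSNK1G1), 0.655 (CSNK2A1) and 0.3 (CSNK1E), all below the 3 shared promoters. CSNK1E has another RefSeq start 651 bp downstream of the first, whose window had 0.92, so the order depends on the start chosen. By GC content the order at the record starts was different. It was 69.7% at CSNK1A1, 57.3% at CSNK1G3 and 66.3% at CSNK2B. The members without a promoter peak had 78.3% (CSNK2A2), 60.7% (CSNK1G1), 55.3% (CSNK2A1) and 51.7% (CSNK1E). The ratio therefore does not rank these windows by their GC content. Among windows at the 5′ end of a gene record, the median was 0.852 where both lists had a promoter peak (2025 windows) and 0.695 where neither had (9687 windows). It was 0.862 with a PRMT6 peak only and 0.858 with a PARP1 peak only, so a high value was not particular to promoters in both lists. The part of the CpG ratio or of GC content in the peak calls of these genes was not tested.

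Motifs were searched on both strands of the 7 windows, as letters only. The ETS motif CCGGAAGT, which ETS family factors bind, was found at CSNK1A1 (193 to 186 bases before the start), at CSNK1G3 (10 to 17 bases after it) and at CSNK1G1 (100 to 93 bases before it), and in 5.33% of all windows. The GC box GGGCGG, bound by SP factors, was found at 5 of the 7 genes, namely CSNK1A1, CSNK1G1, CSNK2A1, CSNK2A2 and CSNK2B, and in 56.3% of all windows. The peakless window of CSNK2A2 held 5 of them. CCAAT occurred at CSNK1G3 and CSNK2B, against 34.7% of all windows, and TATAAA at CSNK1G3, against 9.47%. None of the 7 windows held the E-box CACGTG, through which CLOCK and BMAL1 act (8.34% of all windows). Nor did they hold the D-box TTATGTAA (0.667%), the cAMP response element TGACGTCA (2.26%), the NRF1 motif GCGCATGCG (2.36%), the YY1 motif AAGATGGCG (2.41%) or CTCGCGAGA (0.933%). CSNK1G1, which had no promoter peak, carried both an ETS motif and a GC box.

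CSNK1A1 encodes CK1 alpha, and its record lies on the minus strand of chromosome 5 (149492982 to 149551439). The PRMT6 peak (149551249 to 149551829) reached from 390 bp upstream to 190 bp downstream of the 5′ end, and the PARP1 peak (149551384 to 149551851) from 412 bp upstream to 55 bp downstream. They shared 446 bp, which is 76.8% of the PRMT6 peak and 95.3% of the PARP1 peak. The score is the authors' −log10 significance value of the peak caller, so it ranks peaks within a list and is not compared between lists. The PRMT6 peak scored 5.55 and ranked 4181, and 28.7% of the 3041 PRMT6 promoter peaks scored lower. The PARP1 peak scored 13.36 and ranked 929, and 88.8% of the 3859 PARP1 promoter peaks scored lower. CSNK1A1 thus held the best-ranked PARP1 peak of the family beside a PRMT6 peak near the middle of its list.

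Both CSNK1A1 peaks also spanned the 5′ end of ARHGEF37, a guanine nucleotide exchange factor gene transcribed in the opposite direction from 186 bp upstream. The peaks cannot be assigned to either gene from position alone. PARP1 had a pair of further peaks around CSNK1A1 that no PRMT6 peak overlapped. The first (149485931 to 149486401) lay 6581 bp beyond the 3′ end of the record, scored 12.89 and ranked 1013. The second (149561930 to 149562177) lay 10491 bp upstream, scored 7.93 and ranked 3641. For both, the nearest PRMT6 peak was the promoter peak, 64848 bp and 10101 bp away. A second RefSeq start of CSNK1A1, 1074 bp inside the record, lies in the same window and changed no count.

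**Figure D2:**
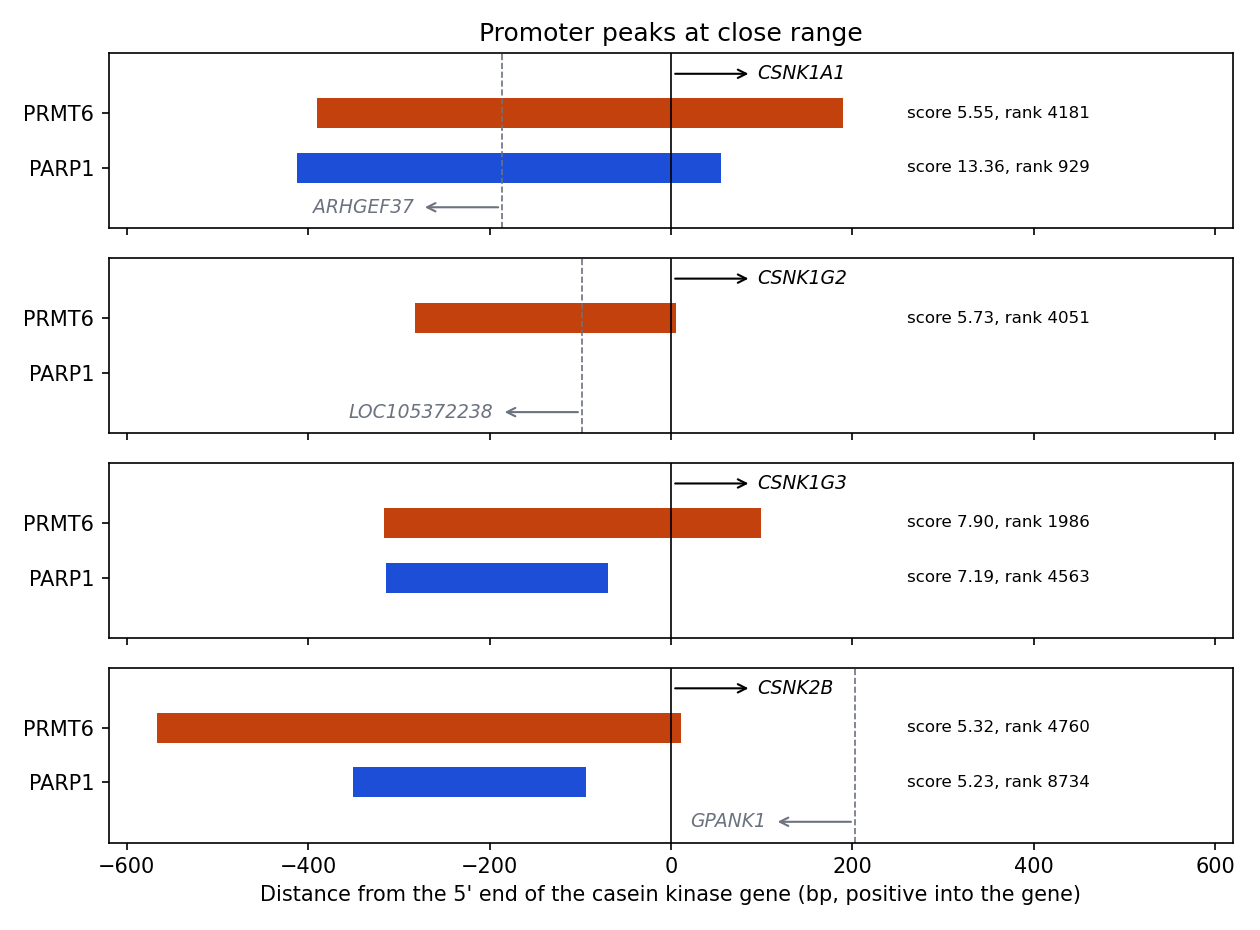
The 4 promoters with a peak at close range, with distance from the 5′ end in bp, with bars for the listed extent of each PRMT6 and PARP1 peak and dashed lines for the 5′ end of a neighbouring gene. At CSNK1A1 both bars cross both start sites, whereas at CSNK1G3 and CSNK2B the PRMT6 bar crosses the start and the PARP1 bar ends 69 and 94 bp before it.

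CSNK1D and CSNK1E encode CK1 delta and CK1 epsilon, and neither had a promoter peak. Both nevertheless had peaks of both lists inside the gene. In CSNK1D (chromosome 17, 82239019 to 82273750, minus strand) the PRMT6 peak (82267589 to 82268125) began 5625 bp downstream of the 5′ end, scored 8.32 and ranked 1697. The PARP1 peak (82267651 to 82267955) lay wholly within it, scored 6.47 and ranked 5833. A further pair lay upstream of CSNK1D, where the PRMT6 peak (82287969 to 82288440, 14219 bp from the 5′ end) scored 8.34 and ranked 1696. The PARP1 peak there (82288057 to 82288257) was again contained in it, scored 5.10 and ranked 8910. No start of another gene lay within 3 kb of either pair. PARP1 alone had peaks 8035 bp beyond the 3′ end (82230738 to 82230984, rank 4734) and 18888 bp upstream (82292638 to 82292989, rank 4307), the latter at the 5′ end of the noncoding gene LINC01970.

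CSNK1E (chromosome 22, 38290691 to 38318084, minus strand) had a peak pair 4450 bp and another 19124 bp downstream of its 5′ end. The first comprised a PRMT6 peak (38313346 to 38313634, score 5.37, rank 4600) and a PARP1 peak (38313281 to 38313542, score 4.10, rank 11158) that shared 197 bp. This PARP1 peak was among the weakest of its list, with 4.09% of peaks scoring lower. The second comprised a PRMT6 peak (38298672 to 38298960, score 5.04, rank 5567) that lay entirely within the PARP1 peak (38298524 to 38298960, score 6.10, rank 6407). Both PRMT6 peaks of CSNK1E had the smallest width in the list, 288 bp as end minus start, which 53.1% of all PRMT6 peaks have. The nearer pair of CSNK1E lay closest to a 5′ end among the family's peaks outside the promoter window, while every promoter peak of the family came within 94 bp of the 5′ end.

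The gamma isoforms differed from one another. CSNK1G3 (chromosome 5, 123512177 to 123617049, plus strand) had a PRMT6 peak (123511861 to 123512276) that spanned the 5′ end, scored 7.90 and ranked 1986, the best rank among the family's PRMT6 promoter peaks. Its PARP1 peak (123511863 to 123512108) lay entirely within the PRMT6 peak, scored 7.19 and ranked 4563. No start of another gene lay within 3 kb of them, and no further peak of either list lay in the gene or within 20 kb. CSNK1G3 was therefore the only one of the 3 shared promoters where no neighbouring start was found among gene records with a strand.

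CSNK1G2 (chromosome 19, 1941172 to 1981338, plus strand) had a PRMT6 peak (1940890 to 1941178) that ended 6 bp inside the gene, scored 5.73 and ranked 4051. It had the smallest width of the list, and without peaks of that width CSNK1G2 had no promoter peak. The same peak spanned the 5′ end of LOC105372238, a noncoding gene that starts 98 bp upstream in the opposite direction. The nearest PARP1 peak was 35625 bp from the record and lay at the 5′ ends of SCAMP4 and ADAT3. A lower PARP1 signal at CSNK1G2 cannot be read from this, since a list does not hold values under its threshold.

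CSNK1G1 (chromosome 15, 64165525 to 64356173, minus strand) is the longest of the genes at 190649 bp, and its 5′ end had no peak within 20 kb. A PRMT6 peak inside the record (64322191 to 64322479) scored 3.35 and ranked 8412, so only 3.83% of the list scored lower. The best-scoring PRMT6 peak near any of the genes lay 2019 bp beyond the 3′ end of CSNK1G1 (64163004 to 64163506, score 15.96, rank 298). It overlapped a PARP1 peak (64162957 to 64163519, score 12.06, rank 1235) by 503 bp. Both spanned the 5′ end of PPIB, the gene of cyclophilin B, and this pair therefore lay at the promoter of another gene.

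Among the CK2 genes, CSNK2B, which encodes the regulatory beta subunit, had promoter peaks of both lists. CSNK2A1 and CSNK2A2, which encode the catalytic alpha and alpha prime subunits, had none. CSNK2B (chromosome 6, 31666080 to 31670067, plus strand) is the shortest of the genes at 3988 bp. Its PRMT6 peak (31665513 to 31666091) ran from 567 bp upstream to 11 bp inside the gene, scored 5.32 and ranked 4760. Its PARP1 peak (31665729 to 31665986) lay within the PRMT6 peak, scored 5.23 and ranked 8734. Both were weak promoter peaks, with 25% of PRMT6 and 18.5% of PARP1 promoter peaks scoring lower. The peaks lay within the record of GPANK1, a gene on the opposite strand whose 5′ end is 203 bp inside CSNK2B, so the genes overlap head to head. As at CSNK1A1, position alone cannot assign these peaks to either gene.

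Around CSNK2B, PRMT6 alone had a peak 9447 bp beyond the 3′ end (31679514 to 31679802, score 4.48, rank 6841) and PARP1 alone had a peak 13126 bp upstream (31652440 to 31652954, score 8.36, rank 3238). The latter spanned the 5′ end of BAG6 and began 36 bp inside APOM. The PRMT6 peak lay 1265 bp inside LY6G5C, so both neighbouring peaks were closer to the start of another gene than to CSNK2B.

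CSNK2A1 (chromosome 20, 472498 to 543790, minus strand) had PARP1 peaks only. Inside the gene a PARP1 peak (529227 to 529489) lay 14301 bp from the 5′ end, scored 5.38 and ranked 8153. A second (553445 to 553645, score 6.09, rank 6512) lay 9655 bp upstream and had the smallest PARP1 width, 200 bp. Another (462566 to 462771, score 7.27, rank 4456) lay 9727 bp beyond the 3′ end and 33 bp upstream of TBC1D20. The nearest PRMT6 peak was 64560 bp from the record. CSNK2A2 (chromosome 16, 58157907 to 58198106, minus strand) had no peak of either list in the gene or within 20 kb. Its nearest PARP1 peak lay 28181 bp from the record at the 5′ end of CFAP20, and its nearest PRMT6 peak lay 349610 bp away. At the 20 kb limit, the last peaks inside it were the PARP1 peak 18888 bp and the PRMT6 peak 14219 bp upstream of CSNK1D. The first outside it were a PARP1 peak 21985 bp from the record of CSNK1D and a PRMT6 peak 25164 bp from that of CSNK1G1.

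**Figure D3:**
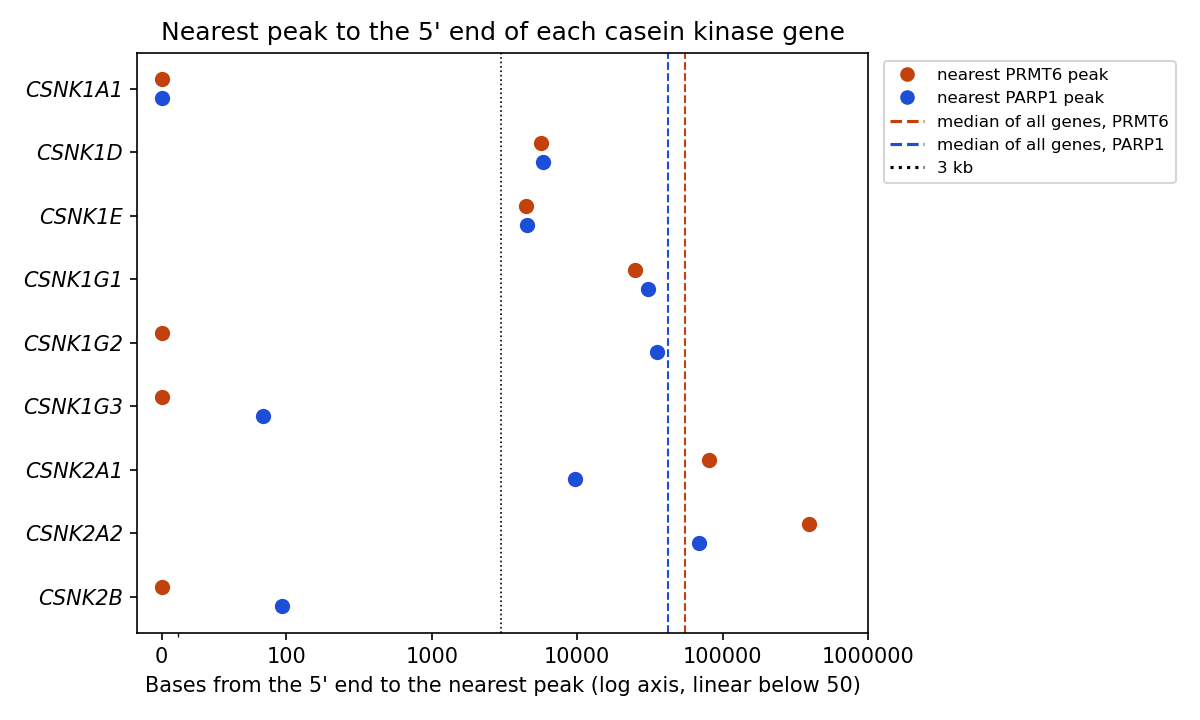
Bases from the 5′ end of each gene to the nearest PRMT6 and PARP1 peak, on a log axis that is linear below 50, with dashed lines at the medians of all 19719 protein-coding genes. CSNK2A1 and CSNK2A2 lie to the right of the PRMT6 median of 55171 bp, and CSNK2A2 alone lies to the right of the PARP1 median of 42261 bp.

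The distance from the 5′ end to the nearest peak separated the genes further. For PRMT6, the distance was 0 bp at CSNK1A1, CSNK1G2, CSNK1G3 and CSNK2B, 4450 bp at CSNK1E, 5625 bp at CSNK1D, 25164 bp at CSNK1G1, 80008 bp at CSNK2A1 and 389809 bp at CSNK2A2. For CSNK2A2, 89.5% of all protein-coding genes had a PRMT6 peak closer to their 5′ end. For PARP1, it was 0 bp at CSNK1A1, 69 bp at CSNK1G3, 94 bp at CSNK2B, 4542 bp at CSNK1E, 5795 bp at CSNK1D, 9655 bp at CSNK2A1, 30645 bp at CSNK1G1, 35625 bp at CSNK1G2 and 68380 bp at CSNK2A2. Among the 9 genes, CSNK2A2 was thus the farthest from a peak in both lists. CSNK1G2 was among the nearest in the PRMT6 list but second from the farthest in the PARP1 list. For PARP1, 59.9% of all protein-coding genes had a closer peak than CSNK2A2, and 47% had a closer one than CSNK1G2. Neither PARP1 distance was unusual among all genes.

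Beyond the promoters, PRMT6 peaks inside the gene were found at CSNK1D, CSNK1E and CSNK1G1, 3 of 9 against 13.2% of all genes. PARP1 peaks inside were found at CSNK1D, CSNK1E and CSNK2A1, 3 of 9 against 14.6%. In the higher-scoring 50% of each list, these counts fell to 1 for PRMT6 and 0 for PARP1. With the surrounding 20 kb included, 7 of 9 genes had a PRMT6 peak, against 43.2% of all genes, and 7 of 9 had a PARP1 peak, against 48.4%. At CSNK1G1 the only PARP1 peak counted was the one at the PPIB promoter. The median length of the 9 gene records was 40200 bp and that of all protein-coding records was 24697 bp, and longer records have more room for a peak. The part of length in these counts was not tested.

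In all, 11 PRMT6 and 16 PARP1 peaks lay at the promoters, inside the genes or within 20 kb. Of the PRMT6 peaks, 8 of 11 overlapped a PARP1 peak, where 46.4% of the whole list did. Of the PARP1 peaks, 8 of 16 overlapped a PRMT6 peak, where 36.4% of the whole list did. Outside the gene records lay 9 PARP1 and 3 PRMT6 peaks, and the PARP1 list is the longer one. There 2 of 9 PARP1 peaks overlapped a PRMT6 peak, beside 36.4% of the whole list, and 2 of 3 PRMT6 peaks overlapped a PARP1 peak. With so few peaks this is a description only. Inside the genes 3 of 4 peaks of each list overlapped, 2 of them in CSNK1E, and no share of such peaks over all genes is given. At the promoters 3 of 4 PRMT6 and 3 of 3 PARP1 peaks overlapped the other list. Shares over all genes were counted by gene, whether or not the peaks overlapped. Of all genes with a PRMT6 promoter peak, 73.2% also had one of PARP1, and 3 of 4 family genes was near this share. Of all genes with a PARP1 promoter peak, 59.5% also had one of PRMT6. In the family 3 of 3 did, which is above this share but rests on 3 genes.

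**Figure D4:**
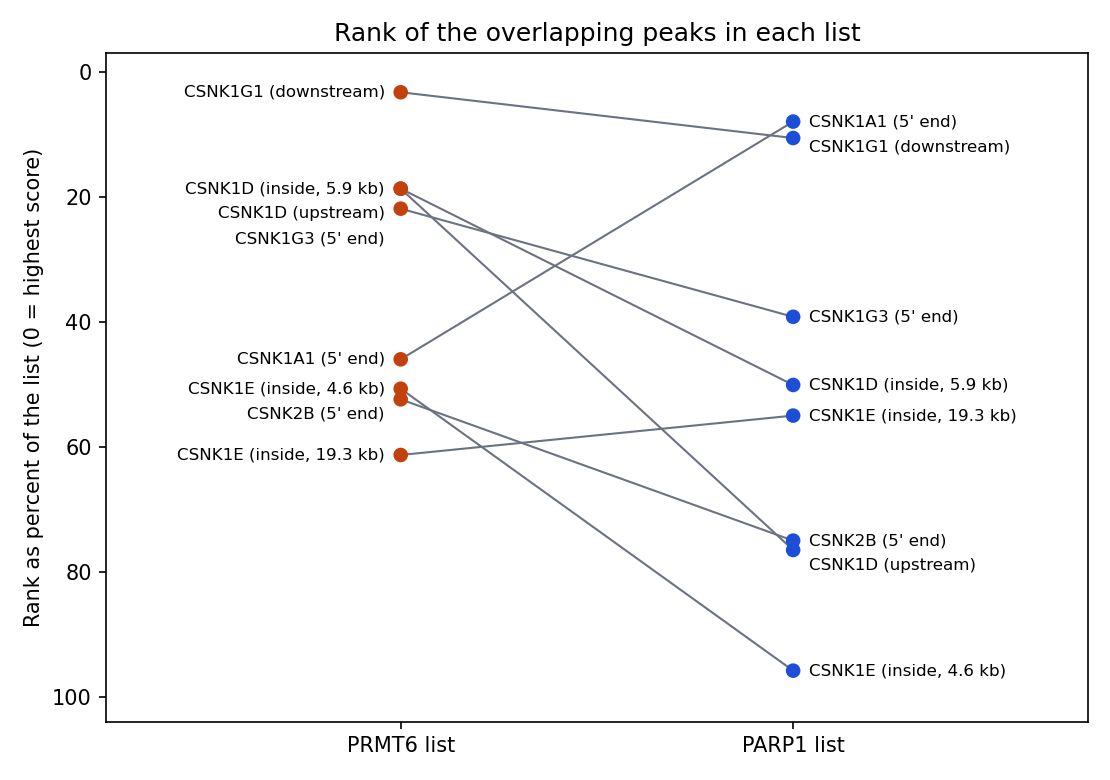
Rank of the 8 overlapping peak pairs in each list, as a percentage of the list with the highest score at the top and a line joining the peaks of a pair; distances in kb are from the 5′ end to the PRMT6 peak centre. The line of the CSNK1A1 promoter rises from 46% in the PRMT6 list to 7.97% in the PARP1 list, and 6 of the 8 lines fall.

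The 8 overlapping pairs were set side by side by their rank as a percentage of each list, where a low value is a high score. In 6 of 8 pairs the PRMT6 peak stood nearer the top of its list, where 50.9% of all 4248 overlapping pairs did. With 8 pairs this is a description only. At the CSNK1G3 promoter the ranks were 21.9% and 39.2%, and at the CSNK2B promoter 52.4% and 75%. The pair inside CSNK1D ranked at 18.7% and 50.1%, and the pair upstream of it at 18.7% and 76.5%. The nearer pair inside CSNK1E ranked at 50.7% and 95.8%. The pair at the PPIB promoter, beyond the 3′ end of CSNK1G1, ranked at 3.28% and 10.6%. The CSNK1A1 promoter went the other way, at 46% for PRMT6 and 7.97% for PARP1, and so did the pair 19124 bp inside CSNK1E, at 61.3% and 55%. The lists differ in length and in unknown depth, so these positions describe each list and do not measure binding strength between proteins.

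Genes that work with these kinases were taken from lists chosen by function. Among 7 genes of PER and CRY clock proteins and of ubiquitin ligase subunits, 4 had promoter peaks in both lists, namely PER3, CRY2, BTRC and FBXW11. BTRC, the ligase subunit that binds phosphorylated PER proteins and beta-catenin, had a PRMT6 peak that spanned its 5′ end with a score of 15.07 and rank 364, and a PARP1 peak of rank 4563. CRY1 had a PARP1 promoter peak only, and the other 2 genes, PER1 and PER2, had none within 3 kb of the 5′ end. The paper, in contrast, reports enrichment of PRMT6 and PARP1 at the PER1 promoter, by sequencing and by quantitative ChIP. By the same methods it reports both proteins at the PER3 and CSNK1A1 promoters, where both lists had a promoter peak here. The lists come from the authors' own sequencing, so they are not independent of that report. The paper adds sequential ChIP at these promoters, and higher mRNA and protein of the genes after knockdown of PRMT6 or PARP1. Among 6 genes of the beta-catenin destruction complex, GSK3A, GSK3B and AXIN1 had promoter peaks in both lists and APC had a PRMT6 peak only. GSK3B, the kinase that follows CK1 alpha on beta-catenin, had the best rank in both lists among the 9 such genes with promoter peaks in both, at 212 for PRMT6 (score 17.61) and 830 for PARP1.

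Among 7 relatives of the CK1 and CK2 kinases, VRK1 and VRK3 had promoter peaks in both lists, and TTBK1 and TTBK2, the tau tubulin kinases, had a PARP1 peak only. The VRK3 promoter peaks ranked at 673 for PRMT6 and 1699 for PARP1. None of the 8 FAM83 genes, whose proteins anchor CK1 enzymes in the cell, had promoter peaks in both lists, and FAM83D alone had a PARP1 peak. CRY1, PER1, PER2, APC, TTBK1, TTBK2 and FAM83D fell outside the rule for named genes and were chosen after their values were seen. Over the 4 lists, 9 of 28 genes had promoter peaks in both lists, beside 3 of 9 casein kinase genes and 13.4% of all genes.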

How the data were processed

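The authors profiled 1 library per antibody by CUT&Tag, in which an antibody directs the Tn5 transposase to chromatin. The labels also describe adaptor ligation of immunoprecipitated DNA, so the library chemistry is uncertain. The submitters' processing notes name CASAVA 1.4, Bowtie 0.12.8, MACS, MACS2 and the build hg19. There is 1 list per library. Thresholds, duplicate handling and any control library are not given in the sources used here. The deposited lists give positions and a −log10 value per peak, and whether it stems from a p-value or a q-value is not stated. Read depth is unknown, so no interval that needs it is given.

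Positions were checked against both builds. In the PRMT6 list 55 peaks, and in the PARP1 list 61, ended beyond GRCh37 chromosomes. Within 1 kb of a 5′ end lay 30.1% of PRMT6 and 29.5% of PARP1 peaks with GRCh38 records, but 4.04% and 3.94% with GRCh37 records. GRCh38.p14 RefSeq records were therefore used despite the label. Strand came from the RefSeq promoter table for 15842 genes and from GENCODE for 3877, among them CSNK1D and CSNK1G2, and 337 genes without strand were left out. The search for neighbouring starts likewise missed any record, coding or noncoding, that had no strand. Exons and introns were not analysed here. Starts are printed as listed and were taken to count from 1, so edges may be off by 1 bp.

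Overlap meant at least 1 shared bp, and tied scores share the better rank. Python 3.11.15, numpy 2.4.6, pandas 2.3.3 and matplotlib 3.10.9 were used. Peak assignment was tested on simulated data. All members were named, with every peak in or within 20 kb. Other genes were to be named where they shared a promoter peak or, in the lists chosen by function, had promoter peaks of both lists. Genes at peaks outside the promoters, such as PPIB and BAG6, and copies of the casein kinase genes were named beyond this rule. The members and lists were chosen with earlier results of these data known.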

Additional observations from a re-analysis of the deposited data

How the results depend on the processing

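Of 49 alternatives computed, 40 left a count within 1.5 times the reported one and 9 moved it. The counts of promoters with PRMT6, PARP1 or both peaks stayed within that range under every window, list and start site tried in GRCh38. With gene positions of GRCh37, the build that the labels name, 1 gene had a PRMT6 promoter peak, 0 had a PARP1 promoter peak and 0 had both, and 4 genes had a PARP1 peak inside or within 20 kb. The counts inside genes were again 3 for each list, with CSNK1A1 in place of CSNK1D. Peaks inside genes depended most on weak peaks. In the higher-scoring 50% of each list, 1 gene (CSNK1D) had a PRMT6 peak inside and 0 had a PARP1 peak inside, and CSNK2B had no promoter peak in either list. Without peaks of the smallest width, 1 gene had a PRMT6 peak inside, CSNK1G2 had no promoter peak, and 5 of 6 PRMT6 and 5 of 14 PARP1 peaks overlapped the other list. Fewer peaks enter these settings by construction. With reciprocal overlap of 50%, CSNK2B no longer counted as shared, since the overlap was 44.6% of its PRMT6 peak. The settings on overlap of single peaks were chosen after the data were seen.

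No paired analysis was possible because there is 1 library for each antibody, and no replicate was left out for the same reason. The planned comparison of protein sequences was not run. The lists hold peaks above a threshold only, so absence of a peak does not show absence of signal.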

Other observations

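Copies of the casein kinase genes elsewhere in the genome carried no peaks. The pseudogenes and relatives CSNK1A1P1, CSNK1A1P2, CSNK1A1P3, CSNK1G2P1, CSNK1A1L and CSNK2A3 were overlapped by 0 peaks of either list. The closest peak to any of them was a PARP1 peak 36792 bp from CSNK1A1P3. The readthrough gene TPTEP2-CSNK1E, which shares its 3′ part with CSNK1E and starts further upstream on chromosome 22 at position 38398915, had no promoter peak in either list. Besides the 2 pairs inside CSNK1E it held a PARP1 peak (38348204 to 38348404, score 7.06, rank 4743), 50511 bp from its own 5′ end, without a PRMT6 peak.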
